A study of Mus musculus with 20 samples.

Results

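The genes described here are Fgf4, which encodes the growth factor FGF4, and Fgfr1, Fgfr2, Fgfr3 and Fgfr4, which encode the 4 FGF receptor tyrosine kinases. Members were taken as every probe set that the platform annotation assigns to these 5 symbols, and a gene is read by whichever of its probe sets was brightest on average. This gave 17 probe sets for 5 genes, of 34945 probe sets for 18193 genes in the table. The cells came from the inner cell mass, the inner cells that later form the embryo proper and the yolk sac, of C57BL/6 mouse blastocysts at embryonic day 3.5. Each of 20 Affymetrix arrays was hybridised with the amplified cDNA of 1 cell, and per the series design the cells had been screened by PCR for Oct4 and against Cdx2. The labels give 1 group of cells, state no genotype, treatment or sex, and do not say which cells shared an embryo. All tests therefore treat cells as the units, and cells of the same blastocyst would not be independent.

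FGF4 is secreted and binds FGF receptors together with heparan sulfate, a sulfated sugar chain on cell-surface proteins. The bound receptor recruits adaptors that switch on RAS and the MAP kinases MEK and ERK, and ERK in turn induces its own feedback inhibitors, among them Sprouty and Spred proteins and dual-specificity phosphatases. In the mouse inner cell mass, FGF4 is known as a product of epiblast precursors, and FGF receptor signalling is known to favour primitive endoderm, the tissue that lines the blastocyst cavity and later the yolk sac.

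A level is log2 of the quantile-normalised intensity plus 8.48, so the lowest level possible is 3.25. Each array has a floor, set at the 95th percentile of 177 probe sets for odorant and pheromone receptors and for genes of other organs, and floors lay between 6.65 and 7.09. A gene is called in a cell where its level is above that cell's floor. Levels of different probe sets depend on the probes and are not compared with each other. Per cell, 6702 to 7648 genes were called. Cell 19 stood apart, with a median deposited intensity of 14.97 against 25.6 to 30.1 in the other 19 cells, and the values without it are given beside the main results. Pou5f1 (Oct4), a marker of the inner cell mass, was called in 20 of 20 cells. The cells had been screened for it, so this count is no independent check of what they are.

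Fgf4 and Fgfr2 are the 2 members whose calls divided the cells, and the sequences just upstream of their start sites are shown for that reason. They are the 250 bases before the annotated start, from RefSeq's GRCm38.p6 assembly, at chr7:144861136-144861385 on the plus strand for Fgf4 and at chr7:130266809-130267058 on the minus strand for Fgfr2. Capitals mark 3 promoter motifs wherever their letters, or the reverse complement, occur: GGGCGG (the GC box), CCAAT (the CCAAT box) and TATAAA (the TATA box), which do not overlap in either stretch.
Fgf4 promoter: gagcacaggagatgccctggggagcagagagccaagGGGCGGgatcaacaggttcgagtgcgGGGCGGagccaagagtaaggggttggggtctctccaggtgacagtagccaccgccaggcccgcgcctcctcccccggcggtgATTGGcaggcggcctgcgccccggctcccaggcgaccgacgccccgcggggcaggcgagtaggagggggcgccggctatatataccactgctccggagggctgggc
Fgfr2 promoter: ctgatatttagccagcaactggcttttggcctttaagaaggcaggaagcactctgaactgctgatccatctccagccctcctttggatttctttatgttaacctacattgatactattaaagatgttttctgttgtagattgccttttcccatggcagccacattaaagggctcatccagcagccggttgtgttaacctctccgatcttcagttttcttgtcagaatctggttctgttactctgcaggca
The Fgf4 stretch held GGGCGG at 2 places and CCAAT at 1, on the opposite strand, was 71.2% G and C and had 21 CpG dinucleotides. The Fgfr2 stretch held none of the 3 motifs, was 44.0% G and C and had 2 CpG dinucleotides. Among 32851 promoter stretches of this length, 32.7% held GGGCGG, 33.8% held CCAAT and 12.4% held TATAAA, the median was 52.4% G and C, and the median number of CpG was 6. By share of G and C, Fgf4 lay at the 92.2nd percentile and Fgfr2 at the 21.1st. RefSeq's table held promoters for 4 of the 5 members. A match is a description of the letters and says nothing about which factors bind.

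Fgf4 was called in 10 of the 20 cells, and every one of these cells was far above its floor. In the 10 cells with Fgf4 (cells 1, 2, 7, 9, 12, 13, 14, 16, 18 and 19) the level was 10.64 at the lowest, 11.52 at the median and 12.21 at the highest. In the 10 cells without it (cells 3, 4, 5, 6, 8, 10, 11, 15, 17 and 20) the lowest and the median were 3.25 and the highest was 3.77. No cell lay between 3.77 and 10.64. The cells with Fgf4 averaged 11.54 ± 0.51 (SD, n = 10), at least 24.7-fold above the mean floor of the cells without it, where the measured mean was 3.33 ± 0.16 (SD, n = 10). These 2 sets of cells are defined by the Fgf4 level itself, so this difference carries no test, and they are not groups of the study.

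Of the other 3 probe sets of Fgf4, 1 was called in the same cells and the others in few or none. 1420086_x_at, built on the same accession as the probe set used (1420085_at), was called in the same 10 cells. 1449729_at, built on that same sequence too, was called in 0 cells. Its level was 4.63 to 6.66 in the 10 cells with Fgf4 and 3.25 in each of the 10 cells without. 1450282_at, built on another sequence, was called in 2 cells, cell 7 at 8.61 and cell 13 at 7.21, both of them cells with Fgf4. It lay at 3.25, the lowest level possible, in cells 2, 12, 18 and 19, which had Fgf4. The calls in 10 cells thus rest on probe sets built on 1 sequence.

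**Figure D1:**
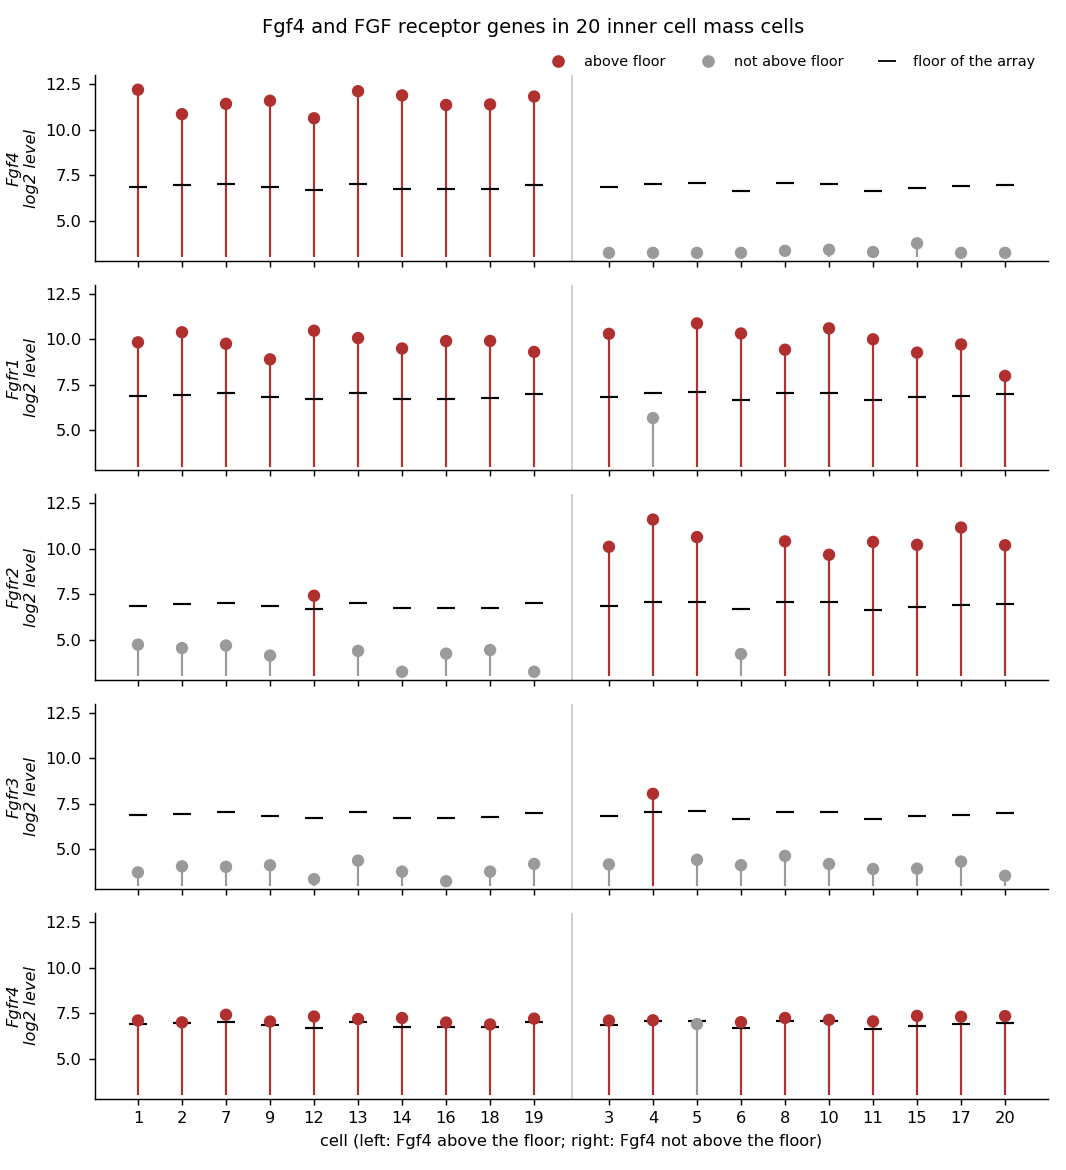
Level of the 5 genes in each of the 20 cells (y axis, log2 level; x axis, cell number), by the brightest probe set of each gene. Red points are above the floor of their array (black bars) and grey points are not; the 10 cells with Fgf4 stand to the left of the grey line. Fgf4 lies between 10.64 and 12.21 on the left and at 3.77 or below on the right, Fgfr2 is above the floor in 1 cell on the left and 9 on the right, and Fgfr4 stays between 6.88 and 7.42 in all 20 cells.

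Fgfr1, the receptor gene found in nearly all of these cells, was called in 19 of 20. Its level was 8.90 at the lowest, 9.87 at the median and 10.48 at the highest in the 10 cells with Fgf4, against 5.68, 9.86 and 10.88 in the 10 cells without. The ranges overlap, and the medians differ by less than the spread within either set. The mean difference, cells with minus cells without Fgf4, was 0.39 ± 0.50 (SE; limma adjusted p = 0.786 over 9790 genes, and 0.78 without cell 19). Cell 4 was the exception, at 5.68 and below its floor of 7.05, and cell 20 was the next lowest at 7.99. Among the 19 cells with Fgfr1 the mean was 9.82 ± 0.67 (SD, n = 19).

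The other Fgfr1 probe sets were dimmer and followed it loosely. 1425911_a_at was called in 4 cells with and 6 cells without Fgf4, and 1436551_at in 2 cells with and 4 cells without. Over the 20 cells Pearson's r with the probe set used (1424050_s_at) was 0.48 for 1425911_a_at and 0.19 for 1436551_at, a description over cells that share a platform and an amplification method. The finding in 19 of 20 cells thus rests on 1 of 3 probe sets.

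Fgfr2, the receptor gene that in many tissues is spliced into epithelial and mesenchymal forms, was called in 10 cells, almost all of them cells without Fgf4. Its level was 3.25 at the lowest, 4.42 at the median and 7.43 at the highest in the 10 cells with Fgf4, against 4.22, 10.30 and 11.61 in the 10 cells without. It was called in 1 of 10 cells with Fgf4, cell 12 at 7.43, and in 9 of 10 without, all but cell 6 at 4.22. Both genes were thus called in 1 cell, Fgfr2 without Fgf4 in 9, Fgf4 without Fgfr2 in 9, and neither in 1. The calls of the 2 genes were the same in 2 of 20 cells.

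Fisher's exact test of these calls, two-sided, gave p = 0.00109, but with Benjamini-Hochberg adjustment over the 5355 genes called in 3 to 17 cells the adjusted p was 0.293. By that test Fgfr2 does not pass, and without cell 19 the adjusted p was 0.248. Over all these genes, 0.0187% passed with calls in the same cells as Fgf4 (1 gene, Atg16l2) and 0.0187% with calls in the opposite cells (1 gene, Gata4). At an unadjusted p under 0.05 there were 132 and 103. Of the 5355 genes, 11 (0.205%) had the same call as Fgf4 in 2 or fewer cells, and Fgfr2 is among them.

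The limma fit of the level itself on the Fgf4 call did pass. Fgfr2 was 5.36 ± 0.72 (SE) lower on the log2 scale in cells with Fgf4 than in cells without (difference -5.36, limma adjusted p = 0.000314 over 9790 genes, rank 12). In that fit 1.09% of genes were called higher with Fgf4 (107 genes) and 0.93% lower (91 genes). With every value under the floor raised to the floor, the difference was -3.17 ± 0.41 (limma adjusted p = 0.000113). Without cell 19 it was -5.19 ± 0.74 (limma adjusted p = 0.00081), and 74 genes were then called higher and 84 lower.

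The Fgfr2 result has 2 limits. The other Fgfr2 probe sets, 1420847_a_at and 1443211_at, were called in 0 cells, with highest levels of 5.52 and 5.39, so it rests on 1433489_s_at alone. The call in cell 12 lies 0.72 above that cell's floor, and with the floor at the 99th percentile no cell had both Fgf4 and Fgfr2 and the exact test's adjusted p was 0.079.

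**Figure D2:**
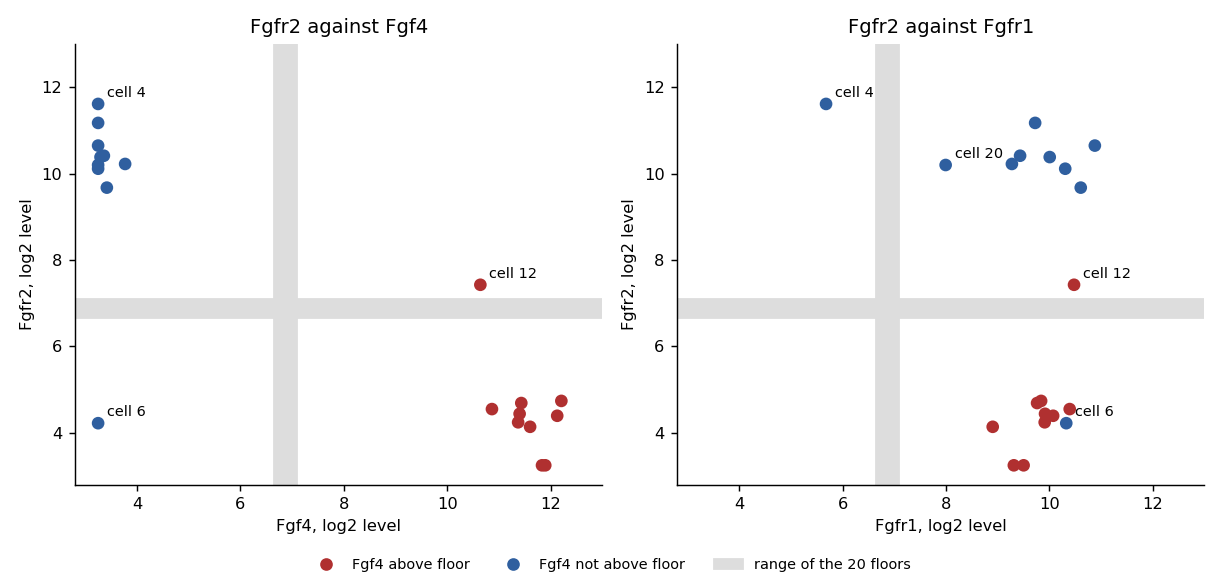
Fgfr2 level (y axis, log2) in each cell against the Fgf4 level (left) and the Fgfr1 level (right), with the range of the 20 floors in grey. Red points are the 10 cells with Fgf4 and blue points the 10 cells without. Cell 12 is the only cell above the floors for both Fgf4 and Fgfr2, cell 6 is below them for both, and cell 4 has the highest Fgfr2 level (11.61) and the lowest Fgfr1 level (5.68).

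Fgfr3, a receptor gene best known for its part in bone growth, was called in 1 of 20 cells. In cell 4 its level was 8.05, from a deposited intensity of 253, against a floor of 7.05. The other 19 cells lay between 3.25 and 4.64. The other Fgfr3 probe set, 1425796_a_at, was called in 0 cells, and its highest level was 4.60. Cell 4 was also the cell without Fgfr1 and the cell with the highest Fgfr2 level, and its mean correlation with the other 19 arrays (0.595) was the lowest of the 20.

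Fgfr4, a receptor gene known for its role in liver bile acid control, was called in 19 of 20 cells but nowhere far above the floor. It was 6.88 at the lowest, 7.14 at the median and 7.42 at the highest in the 10 cells with Fgf4, against 6.90, 7.13 and 7.36 in the 10 cells without. The mean was 7.15 ± 0.15 (SD, n = 20), and the difference with minus without Fgf4 was -0.02 ± 0.11 (SE; limma adjusted p = 0.965, and 0.952 without cell 19). With the floor at the 99th percentile it was called in 0 cells. Cdx2, against which the cells had been screened, gave a similar reading, with calls in 19 of 20 cells at 7.42 ± 0.35 (SD, n = 20). Calls this close to the floor therefore do not show that a transcript was present. Of the other 4 Fgfr4 probe sets, 1427846_x_at was called in 5 cells and 3 were called in 0.

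**Figure D3:**
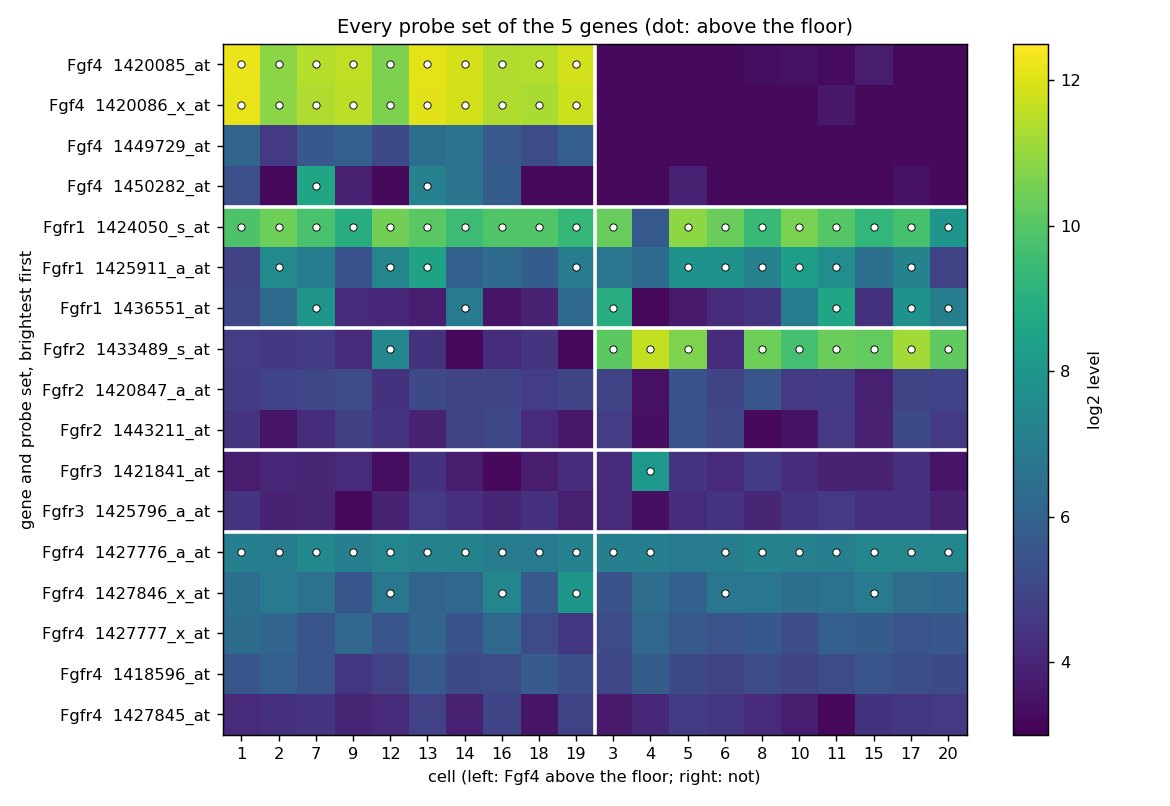
Level of all 17 probe sets of the 5 genes (rows, brightest first within a gene) in the 20 cells (columns; the 10 cells with Fgf4 to the left of the white line). Colour is the log2 level and a dot marks a level above the floor. The second Fgf4 probe set marks the same 10 cells as the first, while the 2 dimmer Fgfr2 probe sets are above the floor in 0 cells.

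Setting Fgfr4 aside, the cells showed 5 combinations of these genes. Fgf4 with Fgfr1 was found in 9 cells (1, 2, 7, 9, 13, 14, 16, 18 and 19). Fgfr1 with Fgfr2 was found in 8 cells (3, 5, 8, 10, 11, 15, 17 and 20). The remaining 3 cells each had a combination of their own. Cell 12 had Fgf4, Fgfr1 and Fgfr2, cell 6 had Fgfr1 alone, and cell 4 had Fgfr2 and Fgfr3 without Fgfr1 or Fgf4. Every one of the 10 cells with Fgf4 thus also had Fgfr1 by its brightest probe set. So had 9 of the 10 cells without Fgf4, so this is not particular to cells with Fgf4. The other Fgfr1 probe sets were called in only 4 and 2 of the cells with Fgf4.

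The spread over cells set Fgf4 and Fgfr2 apart from the other receptors. The SD over 20 cells was 4.23 for Fgf4 and 3.19 for Fgfr2, at the 100th and the 99.8th percentile of the 9791 genes called in 3 or more cells, against 1.13 for Fgfr1 and 0.15 for Fgfr4 and a median of 1.12. The variance test set each gene's variance against limma's prior for genes of like level (F test, Benjamini-Hochberg) and called 0% of these genes. By this F test the unadjusted p was under 0.05 for 25 of the 9791 genes, Fgf4 and Fgfr2 among them (p = 0.0272 and 0.0493, adjusted p = 0.733 for both). Even Fgf4, with the widest SD, did not pass. The test could thus call few genes if any, and no conclusion is drawn from the 0%.

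Genes whose calls followed Fgf4 most closely were Atg16l2, Nipal1, Khdc1a, Mymx and Def8. Atg16l2, a relative of an autophagy gene, was called in the same 10 cells and in no other (agreement in 20 of 20 cells, Fisher's exact adjusted p = 0.029, and 0.0282 without cell 19). Its level was 9.20 to 10.40 in those cells, on average at least 7.16-fold above the mean floor of the cells without Fgf4. Nipal1, of a family of magnesium transporters, agreed in 19 cells (adjusted p = 0.0709), as did Khdc1a, a KH-domain gene with close copies that its probes may also read. Mymx, known for muscle cell fusion, and Def8 agreed in 18 cells each (Fisher's exact adjusted p = 0.239), so that only Atg16l2 of the 5 passed the exact test.

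The 5 genes whose calls matched those of Fgf4 least often were Gata4, Sox17, Cubn, Pth1r and Emb. Gata4, an endoderm transcription factor, agreed in 0 of 20 cells, being called in all 10 cells without Fgf4 and in 0 of 10 with it (Fisher's exact adjusted p = 0.029, and 0.0282 without cell 19). In the cells without Fgf4 it averaged at least 7.70-fold above the mean floor of the cells with Fgf4. The transcription factor gene Sox17, the endocytic receptor gene Cubn and the parathyroid hormone receptor gene Pth1r agreed in 1 cell each, as did Emb, which encodes an immunoglobulin-family membrane protein (Fisher's exact adjusted p = 0.0709 for each). Fgfr2, agreeing in 2 cells, stood at rank 7 from this end.

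The calls of Fgfr2 had no close partner that passed the exact test. With Fgfr2 as the gene set against all others, Fisher's exact test passed 0 genes in the same direction and 0 in the opposite one, with 84 and 116 at an unadjusted p under 0.05. The limma fit on the Fgfr2 call passed 0.572% of genes as higher (56) and 0.613% as lower (60). The best agreement was with Smco4, a small membrane protein gene, in 19 of 20 cells. The water channel gene Aqp8, Gata4, the ERK phosphatase gene Dusp4 and the phosphofructokinase gene Pfkl agreed in 18 each. Fgf4, N4bp3, Mymx and Atg16l2 agreed in 2 cells and Ccdc107 in 3. Fisher's exact adjusted p was 0.515 for each of these 10 genes.

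For Fgfr1, which nearly every cell had, likeness was measured by Pearson's r of levels over 20 cells. The leading genes were Ska1 (r = 0.90), a kinetochore gene, Mtif2 (0.88), a mitochondrial translation factor gene, Tmx3 (0.87), Tmem41b (0.86) and Taf6 (0.85), a subunit gene of the TFIID transcription complex. Without cell 4, where Fgfr1 was low, these values were 0.65, 0.58, 0.76, 0.66 and 0.49, so they rest in part on that cell. For Fgfr4, near the floor throughout, the leading values were 0.73 for Vcpip1, 0.70 for Mrm1, 0.69 for Rps19bp1, 0.68 for Usp36 and 0.65 for Marchf10. All cells share the platform and the amplification method, and these values are descriptions.

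The wider pathway was read from 5 lists of 99 genes, of which 89 were measured and the other 10 are not analysed here. In cells with against without Fgf4, Fisher's exact test passed 0 of the 38 list genes called in 3 to 17 cells. Nipal1, with 1 exception to the Fgf4 calls, already had an adjusted p of 0.0709 by that test. A gene called in more or fewer than 10 cells therefore could not pass it, whatever its split, and no conclusion is drawn from the 0. At an unadjusted p under 0.05 by that test there were 4 of the 38, beside 4.39% of all 5355 genes (235 genes). For unadjusted p-values of the limma fit no share over all genes was taken, so such counts by list below are descriptions only. The limma fit, run on the 56 called in 3 or more cells, passed 1 as higher with Fgf4 and 3 as lower, beside 1.09% and 0.93% of all genes. Over all genes tested the median difference was 0.04, and 54.2% of the differences were above 0.

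Of the 21 other FGF ligand genes, 16 were called in 0 cells and 1, Fgf3, in 1 cell, by the brightest probe set. Dimmer probe sets of Fgf3 were called in 4 cells (1 with and 3 without Fgf4) and 2 cells (0 and 2), and a dimmer one of Fgf11, among the 16, in 1 cell. Fgf8, a ligand best known from gastrulation and limb growth, was called in 20 of 20 cells at 9.998 ± 0.168 (SD, n = 20), with 9.63, 10.04 and 10.21 as lowest, median and highest in cells with Fgf4 and 9.70, 10.04 and 10.29 in cells without. That SD lies at the 1.91st percentile of the genes tested, and Fgf8 has 1 probe set here, so no other reading of it exists on these arrays. Fgf22 was called in 7 cells with and 5 without Fgf4 (7.05 ± 0.34, SD, n = 20) and Fgf1 in 4 and 6 (6.91 ± 0.46), both close around the floor. Fgf10, a ligand of limb and lung buds, spread more widely, from 4.43 to 9.13 in cells with Fgf4 and from 3.25 to 9.18 in cells without, and was called in 5 and 4. The limma fit passed 0 of these 4 ligand genes, with 0 at an unadjusted p under 0.05 by either test, and their median difference was -0.02.

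Of the 10 receptor partner genes, which encode co-receptors and binding proteins, 5 were called in 3 or more cells. Their median difference with minus without Fgf4 was -0.94. Flrt3, a membrane protein that binds FGF receptors and promotes their signalling in Xenopus embryos, was lower in cells with Fgf4 by the limma fit. It was called in 1 of 10 cells with Fgf4 and 8 of 10 without, at 3.25, 3.25 and 8.28 (lowest, median, highest) against 3.25, 10.06 and 10.80. The difference was -4.61 ± 1.04 (SE; limma adjusted p = 0.0232, and 0.043 without cell 19), while Fisher's exact adjusted p was 0.451. Its second probe set was called in 0 cells with and 8 without Fgf4.

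The other partners did not pass. Fgfrl1, a receptor without a kinase domain, was called in 20 cells at 7.89 ± 0.28 (SD, n = 20), although its other probe set was called in 0. Cdh2, which encodes N-cadherin, was called in 3 cells with and 7 without Fgf4 (limma adjusted p = 0.466). Klb, which encodes the co-receptor beta-Klotho, was called in 2 with and 5 without (limma adjusted p = 0.619), and Ncam1, a neural adhesion gene, in 0.

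Of the 16 measured heparan sulfate genes, 12 were called in 3 or more cells, and 1 was higher with Fgf4 by the limma fit. Hs6st1, which adds 6-O-sulfate groups to the chains, was called in 10 of 10 cells with Fgf4 and 5 of 10 without. Its level was 8.15, 9.70 and 10.54 (lowest, median, highest) in cells with Fgf4 against 3.25, 6.94 and 8.55 without. The difference was 2.82 ± 0.66 (SE; limma adjusted p = 0.0274, and 0.0379 without cell 19; Fisher's exact adjusted p = 0.741).

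The other 11 tested genes of this list did not pass the fit. Sulf2, which removes 6-O-sulfate outside the cell, was called in 20 cells at 10.76 ± 0.79 (SD, n = 20). Extl3, which starts the chains, was called in 20 at 9.03 ± 0.37, Hs2st1, which adds 2-O-sulfate, in 19 at 9.54 ± 1.39, and Glce, an epimerase gene, in 8 cells with and 8 without Fgf4. The limma adjusted p of these 4 (the brightest of the 11) lay between 0.898 and 0.977. Chosen after their values were seen, Hs3st1 was called in 0 cells with and 4 without Fgf4 (difference -1.59 ± 0.45, SE, limma adjusted p = 0.0726). Xylt2 was called in 2 and 7 (difference -1.67 ± 0.60, SE, limma adjusted p = 0.164). By the limma fit 3 of the 12 tested genes had an unadjusted p under 0.05, and 6 of the 12 differences were above 0. The median difference of the list was -0.01.

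The adaptors and MAP kinase genes showed no difference that passed either test. Of 23 measured, 10 were called in 18 or more cells, 11 in 3 to 17 and 2 in 0, and the median difference of the 21 tested was 0.07. By the limma fit 5 had an unadjusted p under 0.05 and by the exact test 0. The MEK genes Map2k1 (10.87 ± 0.48, SD, n = 20) and Map2k2 (10.05 ± 0.60), the phosphatase gene Ptpn11 (10.80 ± 0.61), which links receptors to RAS, and the adaptor gene Crk (10.43 ± 0.51) were called in 20 of 20 cells. Their limma adjusted p lay between 0.143 and 0.817.

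**Figure D4:**
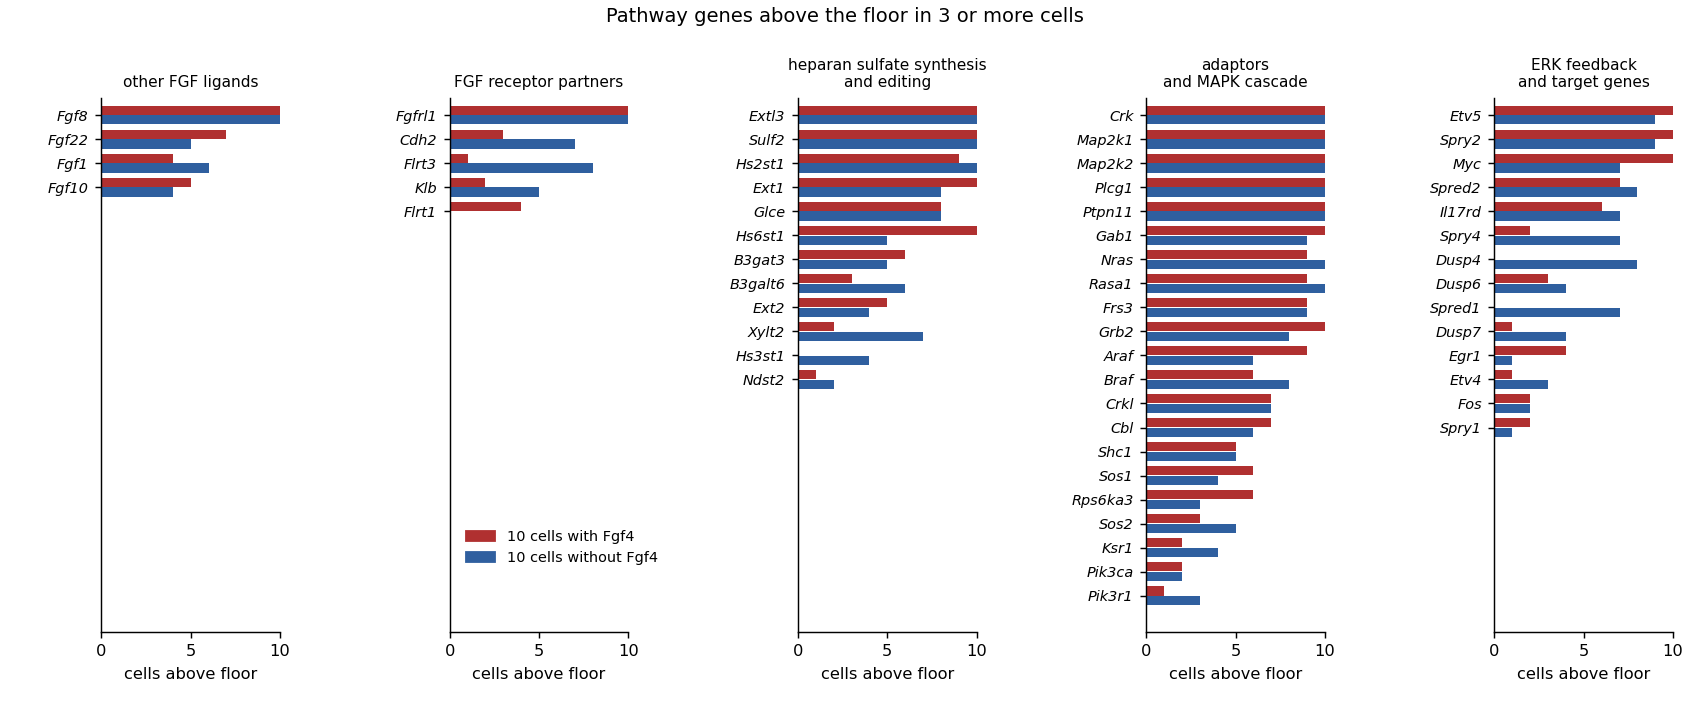
Number of cells above the floor (x axis, of 10) for each pathway gene called in 3 or more cells, in the 10 cells with Fgf4 (red) and the 10 cells without (blue), by list. The bars are equal at 10 for Fgf8, Fgfrl1, Sulf2 and Map2k1, while Flrt3 stands at 1 and 8, Dusp4 at 0 and 8, Spred1 at 0 and 7 and Hs6st1 at 10 and 5.

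Among the ERK feedback and target genes, 2 negative regulators were called in 0 cells with Fgf4 and in most cells without, beside others called in nearly all cells. Of 19 measured genes, 14 were called in 3 or more cells. Their median difference was -0.44, 0 passed as higher with Fgf4 and 2 as lower by the limma fit, and 4 had an unadjusted p under 0.05. Dusp4, a nuclear phosphatase that inactivates ERK, was called in 0 of 10 cells with Fgf4 and 8 of 10 without. Its level was 3.91, 4.84 and 5.54 (lowest, median, highest) in cells with Fgf4 against 4.002, 9.27 and 11.05 without, so cells 6 and 10 without Fgf4 overlap the cells with it. The difference was -3.97 ± 0.73 (SE; limma adjusted p = 0.00478, and 0.0098 without cell 19), and the cells without Fgf4 averaged at least 3.56-fold above the mean floor of those with it.

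Spred1, an inhibitor of RAS signalling to ERK, was called in 0 of 10 cells with Fgf4 and 7 of 10 without. Its level was 3.25, 4.27 and 6.32 in cells with Fgf4 against 4.71, 7.43 and 10.001 without. The difference was -3.06 ± 0.59 (SE; limma adjusted p = 0.00719, and 0.0164 without cell 19). A second Spred1 probe set, 1423161_s_at, was also called in 0 cells with and 7 without Fgf4. By Fisher's exact test neither gene passed, with adjusted p of 0.239 for Dusp4 and 0.414 for Spred1. For genes called in 8 and 7 cells, 0 cells with Fgf4 is the most extreme split possible, so no conclusion is drawn from that.

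Every cell with Dusp4 (8 cells) and every cell with Spred1 (7 cells) also had Fgfr2. By Fisher's exact test on the Fgfr2 call neither passed (adjusted p = 0.515 for each), nor did any other of the 5355 genes. The limma fit on that call passed 0.572% of all genes as higher. In the fit on the Fgfr2 call, Dusp4 was 4.27 ± 0.63 higher (SE; limma adjusted p = 0.00185, and 0.00439 without cell 19) and Spred1 2.97 ± 0.61 higher (limma adjusted p = 0.0164, and 0.0339 without cell 19) in the 10 cells with Fgfr2 than in the 10 without. These fits use nearly the same division of the cells as the fits on Fgf4 and are not independent of them.

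The other 12 tested genes of this list did not pass the fit on the Fgf4 call. Etv5, a transcription factor gene induced by FGF in many tissues, was called in 10 cells with and 9 without Fgf4 (10.70 ± 1.72, SD, n = 20, limma adjusted p = 0.414), the exception being cell 20 at 3.88. Dimmer probe sets of Etv5 were called in 8 cells with and 4 without Fgf4, and in 7 with and 4 without. Spry2, which encodes a Sprouty inhibitor, was called in 10 and 9 (10.18 ± 1.48; limma adjusted p = 0.991). Myc was called in 10 and 7 (difference 2.25 ± 0.87, SE; limma adjusted p = 0.204) and Spred2 in 7 and 8 (limma adjusted p = 0.805). Chosen after their values were seen, the Sprouty gene Spry4 was called in 2 cells with and 7 without Fgf4 (difference -1.98 ± 0.92, SE; limma adjusted p = 0.315), and the immediate early gene Egr1 in 4 and 1 (difference 1.91 ± 0.96, SE; limma adjusted p = 0.374). By the Fgfr2 call, Egr1 was called in 0 cells with and 5 without Fgfr2 (difference -2.82 ± 0.84, SE; limma adjusted p = 0.104).

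Among 27 other receptor tyrosine kinase genes, Pdgfra passed the limma fit, as lower with Fgf4. Pdgfra, a platelet-derived growth factor receptor gene and a primitive endoderm marker, was called in 5 of 10 cells with Fgf4 and 10 of 10 without. Its level was 3.25, 5.49 and 10.21 in cells with Fgf4 against 11.76, 12.20 and 12.49 without, so the sets did not overlap, and the difference was -5.92 ± 0.99 (SE; limma adjusted p = 0.00208, and 0.00449 without cell 19; Fisher's exact adjusted p = 0.741). The ephrin receptor genes Epha2 (20 cells) and Epha4 (19 cells) and the collagen receptor genes Ddr1 (20 cells) and Ddr2 (19 cells) had limma adjusted p between 0.393 and 0.913. Of the receptor tyrosine kinase genes tested in this fit, 3 FGF receptors and 14 others, Fgfr2 and Pdgfra passed.

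Several lineage markers differed with the Fgf4 calls, and their part in the differences above was not tested. The mean level of 6 epiblast markers was 8.75 to 11.08 in cells with Fgf4 against 4.95 to 8.61 in cells without, and 2 of the 6 (Nanog and Klf2) passed the limma fit, while Sox2, Prdm14, Utf1 and Otx2 did not (adjusted p 0.0758 to 0.142). The mean of 7 primitive endoderm markers was 4.41 to 6.94 with Fgf4 against 9.56 to 10.96 without, and 6 of the 7 passed, while Sox7, called in 1 cell, was not tested. The mean of 8 trophectoderm markers overlapped, at 4.43 to 6.75 with Fgf4 and 5.28 to 6.70 without, and 0 of the 4 tested passed the limma fit. Of these, Tfap2c was called in 8 cells with and 5 without Fgf4, Krt8 in 4 and 5, Eomes in 3 and 6, Cdx2 in 9 and 10 and Krt18 in 1 and 1, and Elf5, Gata3 and Krt7 in 0 cells.

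For a list of 6 oocyte, polar body and cumulus cell genes the ranges did not overlap, although 1 gene passed the fit. The mean level of the list was 5.60 to 6.35 in cells with Fgf4 against 4.78 to 5.51 in cells without, with 0 to 2 genes called per cell and 0 to 1. Zp3, a zona pellucida gene, was called in 7 of 10 cells with Fgf4 and 0 of 10 without (difference 3.10 ± 0.58, SE; limma adjusted p = 0.0063, and 0.013 without cell 19), and it was the gene of this list that passed. Oosp1, an oocyte-secreted protein gene, was called in 5 cells with and 1 without Fgf4 (limma adjusted p = 0.264) and Gdf9, an oocyte growth factor gene, in 2 and 1 (limma adjusted p = 0.588), while Bmp15, Has2 and Ptx3 were called in 0 cells. The number of genes called per cell was 6962 to 7609 with Fgf4 (median 7197) and 6702 to 7648 without (median 6997). What part such differences have in the FGF results was not tested.

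The 2 cells that broke the division of Fgf4 and Fgfr2 had markers of both lineages, as had some others, since Gata6 was called in 4 of 10 cells with Fgf4 and Nanog in 7 of 10 without. Cell 12, with both genes, had Nanog at 12.12 and Klf2 at 11.19 beside Gata6 at 9.67, Pdgfra at 10.21 and Lama1 at 7.35. Cell 12 had no call of the endoderm markers Gata4 (3.89), Sox17 (5.38), Cubn (3.25) and Sox7 (6.62). Its Fgf4 level was the lowest of the 10 cells with Fgf4. Cell 6, with neither, had Nanog at 11.83 and Klf2 at 10.49 beside Gata6 at 10.63, Sox17 at 11.31 and Pdgfra at 11.76. Its Gata4 level (7.37) was the lowest of the 10 cells with Gata4. The epiblast markers Prdm14 and Otx2, each at 3.25, and the endoderm marker Sox7 (6.46) were not called in cell 6. Dusp4 (4.002) and Spred1 (4.71) were below the floor in cell 6. These were also the cells with the most genes called, 7648 in cell 6 and 7609 in cell 12.

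Within the cells with and without Fgf4, the receptors were also set beside Gata6 and Klf2, with no test. In the 4 cells with both Fgf4 and Gata6 (cells 2, 12, 13 and 16) Fgfr1 was 9.91 to 10.48 and Fgfr2 was called in 1, and in the 6 cells with Fgf4 but not Gata6 Fgfr1 was 8.90 to 9.92 and Fgfr2 was called in 0. These Fgfr1 ranges, by the probe set used, overlap only in that cell 16, with Gata6, lay at 9.909 and cell 18, without it, at 9.915. In the same cells 1425911_a_at was 6.31 to 8.46 with Gata6 and 4.82 to 7.02 without. The ranges of 1436551_at overlapped widely, at 3.56 to 6.24 with Gata6 and 3.96 to 7.95 without. In the 4 cells with Klf2 but not Fgf4 (cells 6, 8, 10 and 17) Fgfr1 was 9.43 to 10.61 and Fgfr2 was called in 3. In the 6 cells with neither, Fgfr1 was 5.68 to 10.88 and Fgfr2 was called in 6, at 10.11 to 11.61.

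**Figure D5:**
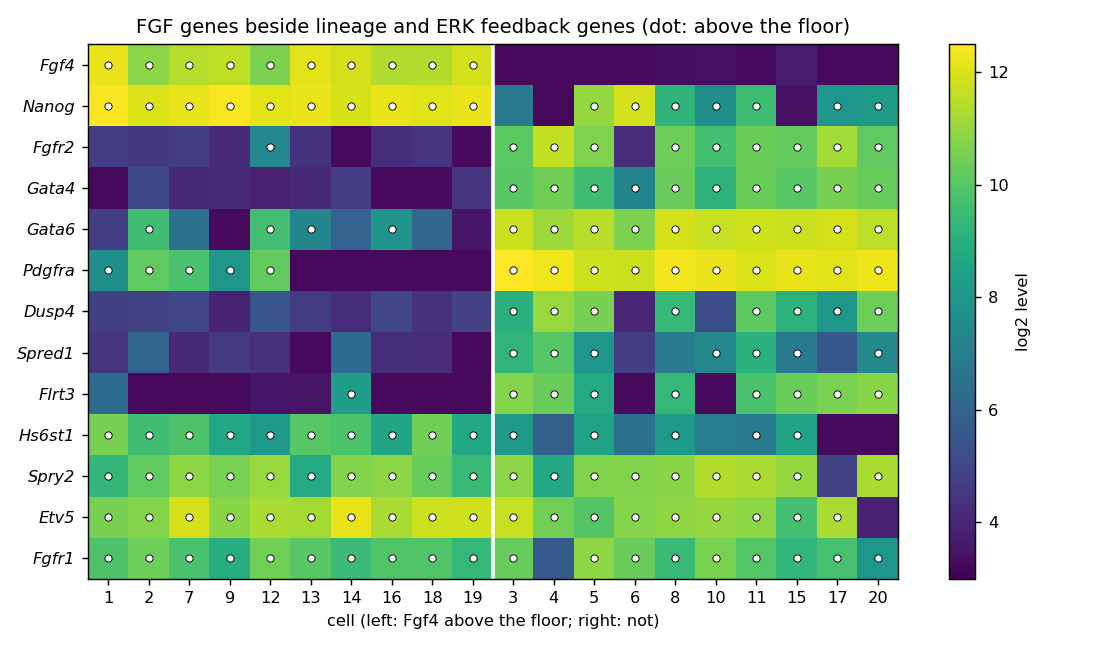
Level (colour, log2) of Fgf4, Fgfr1 and Fgfr2 beside lineage markers and pathway genes named in the text, in the 20 cells (columns; the 10 cells with Fgf4 to the left of the white line); a dot marks a level above the floor. Cell 12 on the left has Fgfr2 with Nanog and Gata6, cell 6 on the right has Nanog and Gata6 without Fgf4 or Fgfr2, and Dusp4 and Spred1 are above the floor on the right only.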

How the data were processed

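Biotin-labelled cRNA from PCR-amplified cDNA of 20 single cells was hybridised to Affymetrix arrays, per the labels' protocols. The deposited values are probe set intensity on a linear scale (1 to 26616). The sources used here do not give the software behind them or how it normalised them. Of 45101 probe sets in the table, 45037 are not controls and 34945 have 1 gene in the platform annotation. Arrays were quantile-normalised and transformed as log2(intensity + 8.48), the pseudocount being the median 25th percentile. For arrays, the signal over the floor and their number limit the precision.

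The members, the lists and the floor genes were chosen with earlier results of these data known. Calls were tested against the Fgf4 and Fgfr2 calls with Fisher's exact test, two-sided (scipy 1.17.1), and as an alternative levels were fitted on these calls with limma 3.58.1 in R 4.3.3, each with Benjamini-Hochberg adjustment over all genes tested at 0.05. Variances were tested with limma's squeezeVar and an F test. All 3 steps were tested on simulated data with independent cells. The simulated levels were normally distributed and not held at a lowest level, unlike the measured ones. Those simulations therefore do not show how the steps perform on these data. Named besides the members were FGF ligand genes called in 3 or more cells, list genes that passed a test, the 4 brightest other members of each list, and for each member the 5 genes most and least like it (by agreement of calls, or the 5 highest r for members called in 18 or more cells). Fgf3, Fgf11, Hs3st1, Xylt2, Spry4, Egr1, Cdx2 and the markers stand outside this rule and were named after their values were seen. Alternatives varied the normalization, pseudocount, floor, probe set, test, genes tested and cell 19. No cell was left out of the main results, no clusters were built, and the labels and files name no batch.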

Additional observations from a re-analysis of the deposited data

How the results depend on the processing

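Of 98 alternative values, 80 stayed on the same side of the threshold or within the spread or 1.5 times the count, 17 moved, 1 passed the threshold that its main value missed and 0 reversed. With the second-brightest probe set the number of cells called was 10 in place of 19 for Fgfr1, 0 in place of 10 for Fgfr2, 0 in place of 1 for Fgfr3 and 5 in place of 19 for Fgfr4, and with the floor at the 99th percentile Fgfr4 was called in 0 cells. The mean level over all probe sets was 7.33 in place of 9.62 for Fgfr1 and 5.75 in place of 7.15 for Fgfr4. With the pseudocount from the 50th percentile it was 5.28 for Fgfr3 (4.20 in the main setting) and 7.33 for Fgfr4, and with values raised to the floor 6.94 for Fgfr3. For Fgfr2 against Fgf4 the exact test's adjusted p of 0.293 lay between 0.079 and 0.457 under its alternatives, and limma on the level gave 0.000314. With the floor at the 99th percentile the exact test passed 0 genes in the same and 0 in the opposite cells as Fgf4, and 1 in the same cells as Fgfr2. Limma passed 107 and 91 genes for Fgf4, in place of 1 and 1, and 56 and 60 for Fgfr2, in place of 0 and 0; it uses the level in place of the call and 9790 genes in place of 5355. The variance test, which could call few genes if any, passed 0 genes under every alternative run. The cause of these changes was not tested. With the mean of all probe sets or the second-brightest probe set, Fgfr2 was called in fewer than 3 cells and its association with Fgf4 could not be tested. No paired analysis was possible because the labels give 1 group. The depth limit is the floor: a gene not called may be present below it, and Fgfr4 lies so close to it that its calls follow its setting. With 20 cells, a pattern with 1 exception to the Fgf4 calls already had an exact test adjusted p of 0.0709 over 5355 genes and did not pass.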
